A study of Mus musculus with 2 samples.

Results

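Articular-type chondrocytes were examined in single-cell RNA sequencing of mouse knee joints, as the cells whose transcripts leaned towards genes of joint-surface cartilage rather than growth cartilage. They were taken from the cells that the authors had marked in the deposited tables, all of which expressed both Sox9, the transcription factor that specifies chondrocytes, and Col2a1, the main fibrillar collagen of cartilage. For each marked cell the mean A of the deposited values of 7 articular genes (Msmp, Cytl1, Crispld1, Rbp4, Frzb, Chil1 and Wif1) was set against the mean G of 7 growth-cartilage genes (Matn1, Epyc, Krt16, Plet1, Il17b, Ppa1 and Sox11). Cells with A above G were called articular-type and the others growth-type, so the cells were chosen by the measured values of these 14 genes. This gave 366 articular-type and 467 growth-type cells of 833 marked cells, out of 6243 cells in all. Deposited values are log2(CPM + 1) in a cell, where CPM is the count of a gene scaled to a fixed total per cell (counts per 1000000) and a count is a unique molecular identifier (UMI).

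There were 2 libraries from female mice at 1 month of age, and each was a pool of 2 to 3 animals. The control mice were Stat3fl/fl, with loxP sites in each Stat3 allele and without Cre. The mutant mice were labelled Acan-Cre+/Cre;Stat3fl/fl and additionally carried Cre in 1 copy of the aggrecan gene Acan. The study also writes this allele as a tamoxifen-inducible form (ERT2) and describes dosing of pups in the first days after birth, whereas the label does not name the inducible form. Both genotypes therefore carry the floxed Stat3 alleles. The Cre sits in the Acan gene itself, so Acan transcripts in the mutant come from a modified locus, and cells that never made aggrecan are not targeted. Knees were digested whole, and live cells without CD31, Ter119 and CD45, which mark endothelium, red cells and leukocytes, were sorted. With 1 library per genotype the spread between animals was not measured, no test was possible, and every difference describes these 2 libraries only. A range after a share gives its exact 95% binomial (Clopper-Pearson) interval and covers counting error only.

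Articular cartilage lines the ends of bones in a joint and persists through life, whereas growth plate cartilage is built, enlarges through hypertrophy and is replaced by bone. Cells near the joint surface secrete lubricin, the Prg4 product, which keeps opposing surfaces sliding. gp130, encoded by Il6st, is the signal-transducing receptor shared by the interleukin-6 family of cytokines. It pairs with partners such as Osmr and Lifr, activates JAK kinases and through them STAT3, a transcription factor that also induces inhibitors of its own pathway such as Socs3.

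Articular-type cells made up 196 of 501 marked cells in the control library (39.1%, 34.8% to 43.5%) and 170 of 332 in the mutant library (51.2%, 45.7% to 56.7%). The difference was 12.1 percentage points, and it depended on which cells had been marked. In the control library 512 further cells with Sox9 and Col2a1 above 0 carried no mark, and 311 of them had A above G (60.7%, 56.4% to 65.0%), while the mutant library had only 3 unmarked cells of this kind. With unmarked cells included, 50.05% of control and 51.3% of mutant cells had A above G, 1.29 points apart. All 311 unmarked control cells had a UMI of a globin gene, whereas no marked cell of either library did. The mark therefore coincided with the absence of globin UMIs in these cells, and whether globin UMIs were used to set it is not given in the sources used here. The absence of globin in articular-type cells is accordingly a property of the marked set and says nothing about how often such cells occurred.

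Depth differed between the libraries, which bears on every share of cells below. The median articular-type cell had 4702 UMIs and 1845 genes in the control library, with a range of 686 to 19473 UMIs. In the mutant library the median was 8407 UMIs and 2478 genes, with a range of 495 to 20957 UMIs. Shares called "at equal depth" were therefore taken after each cell was thinned to 2000 UMIs, which kept 179 control and 160 mutant articular-type cells and left out 17 and 10. Mitochondrial counts had a median of 2.34% and 2.83%, and 9 and 20 cells were above 5%.

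The 7 articular genes define the class, so their levels are given as a description. Crispld1, a secreted cysteine-rich protein, was the most widely detected, in 82.7% of control and 82.4% of mutant articular-type cells, against 43.9% and 42.6% of growth-type cells. Wif1, a secreted inhibitor that binds Wnt ligands, was detected in 66.8% and 68.8%, against 10.2% and 4.32% of growth-type cells. Msmp rested on very few cells, since the 3 cells with most of its UMIs supplied 92.5% of them in control and 80.9% in mutant cells. At least 3 of the 7 genes were above 0 in 109 control cells (55.6%) and 122 mutant cells (71.8%), without correction for depth. In contrast, 41 control and 21 mutant cells entered the class on 1 gene alone, which was Crispld1 in 23 and 5 of them and Wif1 in 9 and 11. No G gene was detected in 130 control and 79 mutant articular-type cells.

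**Figure D1:**
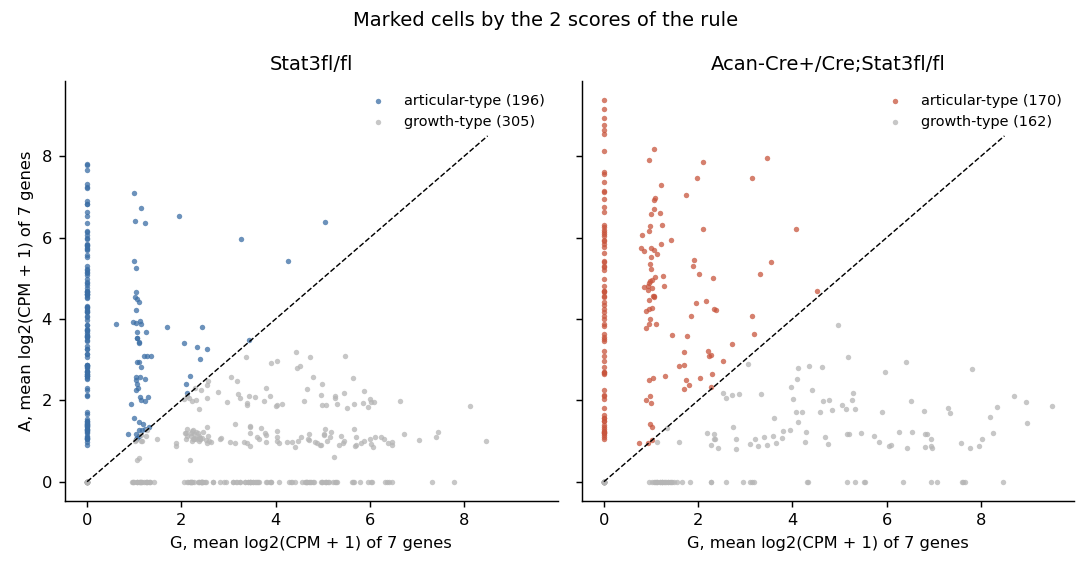
Score A (mean log2(CPM + 1) of the 7 articular genes, y axis) against score G (the same for the 7 growth-cartilage genes, x axis), 1 point per marked cell, with the control library on the left and the mutant library on the right. The dashed line is A = G. Cells above it are the 196 and 170 articular-type cells, most of which lie at or near G = 0 (130 and 79 of them exactly at 0), and grey cells are growth-type.

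Near the boundary, 59 control and 43 mutant marked cells had A and G within 0.5 of each other. Of these, 15 control and 10 mutant cells were articular-type. The nearest cells inside the boundary had A above G by 0.0187 and 0.000151 in the control and the mutant library, and the nearest outside had G above A by 0.00178 and 0.0159. The cells within 0.5 included 24 control and 29 mutant cells that had neither an A nor a G gene and were counted as growth-type. Those cells without either gene were shallow, with a median of 1398 and 3130 UMIs.

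The classes were then compared across all other genes, to see whether the label fitted genes the rule had not used. UMIs were summed over the cells of a class within each library and expressed as CPM. The class was built from the same cells, so this contrast is a description without independent support. Among 4761 genes passing a filter on low values in both libraries (detected in 10% of cells of either class, mean of at least 20 CPM), 141 (2.96%) were at least 2-fold higher in articular-type cells in both libraries and 87 (1.83%) at least 2-fold lower. Of 12 known articular genes outside the rule, 9 passed the filter, 7 were at least 2-fold higher in both libraries and 1 was lower. Their median log2 ratio was 2.67 for control and 2.99 for mutant cells, against 0.01 and 0.05 over all genes.

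Prg4 (chromosome 1, 150449412 to 150466165, minus strand, GRCm38), which encodes lubricin, was at 5839 CPM in control and 4738 CPM in mutant articular-type cells. In growth-type cells it was at 916 and 459 CPM, which gives log2 ratios of 2.67 and 3.37. At equal depth Prg4 was detected in 40.2% and 50.6% of articular-type cells but in only 2.43% and 10% of growth-type cells.

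Clu (chromosome 14, 65968483 to 65981547, plus strand), encoding the secreted chaperone clusterin, stood furthest apart. It was at 1869.9 and 2127 CPM in control and mutant articular-type cells and at 60.2 and 49 CPM in growth-type cells, log2 ratios of 4.94 and 5.41. Cilp and Cilp2, which encode cartilage intermediate layer proteins of the matrix, had log2 ratios of 4.10 and 2.44 in control cells and 3.47 and 2.91 in the mutant library. Thbs4, a thrombospondin, and Abi3bp, another secreted matrix protein, had ratios of 3.17 and 3.60 in control cells and 4.38 and 2.99 in the mutant library. Creb5, a transcription factor linked to Prg4 expression, differed less, with ratios of 1.40 and 0.42. The exception was Pcolce2, an enhancer of procollagen processing, which was lower in articular-type cells by log2 ratios of -1.40 and -1.52.

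The other genes furthest above growth-type cells encode mostly secreted or matrix proteins. Omd, a small leucine-rich proteoglycan, had the same log2 ratio of 3.71 in both libraries. Myoc, a secreted glycoprotein, had 3.70 in control and 3.88 in mutant cells. Sulf2, an extracellular enzyme that trims sulfate from heparan sulfate, had 3.07 and 2.87, and Spon1, a matrix protein, had 3.01 and 2.84. Tnfrsf11b encodes osteoprotegerin, the decoy receptor that blocks osteoclast formation, and had 2.14 and 2.37. Ecm2, Serpine2 (an inhibitor of serine proteases), Cp (ceruloplasmin) and Col5a2 (a type V collagen chain) had ratios between 2.02 and 3.31. Col5a2 was at 1627 and 1069 CPM in articular-type and 163 and 263 CPM in growth-type cells.

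Fewer genes were lower. Panx3, a channel gene of prehypertrophic chondrocytes, was nearly absent from articular-type cells at 5.04 and 7.95 CPM, against 230.2 and 111 CPM in growth-type cells. Fxyd2, a regulator of the sodium pump, was at 36.9 and 49.4 CPM against 408 and 726 CPM. C1qtnf3, a secreted protein of growing cartilage, was at 444 and 138 CPM against 1471 and 1155 CPM. Fdps and Scd1, enzymes of sterol precursor and fatty acid synthesis, had log2 ratios of -1.88 and -1.65 in control cells and -1.57 and -1.75 in the mutant library. Fkbp11, Colgalt2, Prkg2, Lbh and Dusp5 completed the 10 lowest, with ratios between -3.59 and -1.61.

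**Figure D2:**
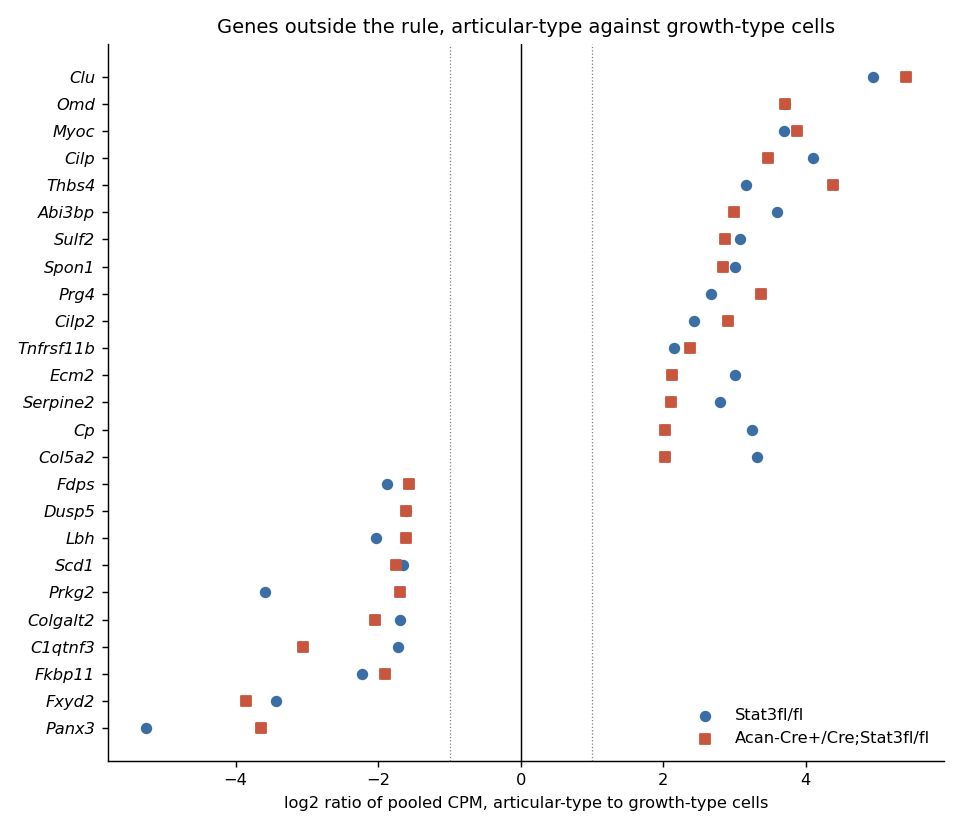
Log2 ratio of pooled CPM in articular-type to growth-type cells (x axis) for the 15 highest and 10 lowest genes outside the rule, ranked by the smaller of the ratios in size, with circles for the control and squares for the mutant library. Dotted lines mark a 2-fold difference in either direction. Clu is highest (4.94 and 5.41) and Panx3 lowest (-5.26 and -3.65), and every gene shown lies beyond 2-fold on the same side in both libraries.

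Cartilage matrix genes leaned the other way, where 2.96% of all genes were higher in both libraries and 1.83% lower. All 24 of the listed matrix genes passed the filter, 8 were at least 2-fold lower in articular-type cells in both libraries and 3 were higher, with medians of -0.77 and -0.86. Acan, the core protein of aggrecan, was at 2661 CPM in control and 1093 CPM in mutant articular-type cells and at 5834 and 2279 CPM in growth-type cells. Hapln1, the link protein that ties aggrecan to hyaluronan, had log2 ratios of -1.55 and -1.51, and the collagen chains Col9a2, Col9a3 and Col11a2 lay between -1.63 and -1.10. Matn3, Prelp and Hspg2 were the other lower genes. The 3 higher genes were Dcn (2.59 and 2.01), Chad (1.72 and 1.08) and Vcan (2.19 and 1.86), which encode decorin, chondroadherin and versican. Of 10 genes for glycosaminoglycan synthesis that passed, 4 were lower (Chst11, Csgalnact1, Papss2 and the sulfate transporter Slc26a2, at -1.25 in both libraries) and none was higher.

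Among signalling genes, the counts stand against 2.96% of all genes higher and 1.83% lower. Of 6 FGF genes, 3 were at least 2-fold higher in both libraries: the receptor Fgfr2 (2.11 and 1.27), the ligand Fgf2 (1.83 and 1.70) and the feedback phosphatase Dusp6 (1.71 and 1.26). Of 7 IGF genes, the binding proteins Igfbp6 (1.5 and 1.91) and Igfbp7 (1.85 and 1.66) were higher. Of 17 BMP and TGF-beta genes, Grem1, a BMP antagonist, and Tgfbr1 were higher (5.29 and 1.51 in control cells, 2.57 and 1.11 in mutant cells), and Tgfbi was lower. Of 17 transcription factors the nuclear factors Nfia and Nfib were higher and Runx3 lower. Of 14 growth plate genes outside the rule that passed the filter, Ibsp and Cd200 were higher and Panx3 and Smpd3 lower, with medians of -0.17 and 0.50. None of 9 gp130 receptors, kinases and STATs and none of 6 hedgehog and PTHrP genes passed 2-fold in both libraries.

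The class was not free of genes typical of other connective tissue cells. Osteoblast markers summed to 9612 and 12644 CPM in articular-type cells and 777 and 5284 CPM in growth-type cells. Ibsp, a bone matrix protein, was at 974 and 1481 CPM against 25.7 and 413 CPM, and Col1a1, the main collagen of bone and fibrous tissue, at 7052 and 5656 CPM against 643 and 3103 CPM. At least 3 osteoblast markers were detected in 12 control and 18 mutant articular-type cells. Some of this signal lay in cells with 1 A gene. With at least 2 A genes above 0, a limit chosen after seeing the data, Col1a1 was at 5245 and 3428 CPM. Bglap, an osteoblast marker, was then at 14.2 and 2188 CPM, against 1392 and 4690 CPM in the whole class. The fibroblast list summed to 2463 and 1072 CPM against 473 and 425 CPM, carried mainly by Col3a1, while the defining fibroblast markers Pi16 and Dpp4 were at or below 4.77 CPM. The part of these cells in the class difference was tested only by leaving out the cells with osteoblast markers, after which all 25 genes in the plot of class differences kept their side of the 2-fold line. Blood and endothelial lists were low, with 4 endothelial markers summing to 6.78 and 12.8 CPM (Cdh5 and Emcn at 0 in both libraries), 4 macrophage markers to 3.89 and 7.9 CPM (C1qa at 0) and 4 neutrophil markers to 1.95 and 3.7 CPM (Ngp at 0). The 4 lymphocyte markers summed to 2.05 and 0.996 CPM (Cd3e and Nkg7 at 0). The 5 erythroid markers summed to 4.76 and 0 CPM, with all 4 globin genes at 0, as in every marked cell.

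Lubricin transcripts were found in part of the class. Prg4 was above 0 in 94 control and 101 mutant articular-type cells and at 0 in 102 and 69. Median depth was 4274 against 4783 UMIs in control cells and 8521 against 8274 UMIs in the mutant library. A cell at 0 may still hold Prg4 transcripts below detection. The split was chosen after the data were seen and is described without a test. Of 2396 genes, 29 (1.21%) were at least 2-fold higher and 7 (0.292%) at least 2-fold lower in Prg4-positive cells in both libraries.

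Cells with Prg4 carried more of several matrix and regulatory genes. Cilp was at 419.9 CPM with and 12.2 CPM without Prg4 in control cells, and at 406 and 4.82 CPM in the mutant library. Creb5 was at 268 and 52.6 CPM in the control library and at 148 and 23.7 CPM in the mutant library. Gas1, a membrane protein that binds hedgehog ligands, was at 593 and 34.9 CPM in the control library and at 343 and 64.4 CPM in the mutant library. Thbs4, Vit, Clu, Abi3bp, Col8a1, Angptl1 and Igfbp6 were also higher, with log2 ratios between 1.55 and 4.44. For Igfbp6, 3 cells supplied 53.7% of the UMIs in control cells with Prg4 and 87.2% in mutant cells without it. In mutant cells without Prg4, 3 cells also supplied 76.8% of Col8a1 and 83.4% of Angptl1 UMIs. Erg, a transcription factor of the joint surface, was higher in both libraries but less evenly, by 0.95 and 3.30.

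Cells without Prg4 carried more Igf1, the growth factor IGF-1. It was at 1175 CPM without and 227 CPM with Prg4 in control cells, and at 127 and 43.2 CPM in the mutant library. C1qtnf3 was at 708 and 148 CPM in the control library and at 217 and 86.6 CPM in the mutant library. In mutant cells both rested on few cells, since 3 cells supplied 53.6% of Igf1 and 60.3% of C1qtnf3 UMIs without Prg4, and 70.6% and 74.1% with Prg4. In control cells with Prg4, 3 cells supplied 66.3% of the C1qtnf3 UMIs. Pth1r, the receptor for PTHrP, was at 119.9 and 52.2 CPM in the control library and at 179.8 and 45.2 CPM in the mutant library. Both C1qtnf3 and Pth1r were also lower in articular-type than in growth-type cells of each library, Pth1r by -1.67 and -0.90. Igfbp5, which encodes a binding protein for IGF-1, was at 2220.0 CPM with and 228 CPM without Prg4 in control cells. In the mutant library it was at 168 and 337 CPM, but 3 cells supplied 66.2% of its UMIs in the cells without Prg4, so no order is read from these values.

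**Figure D3:**
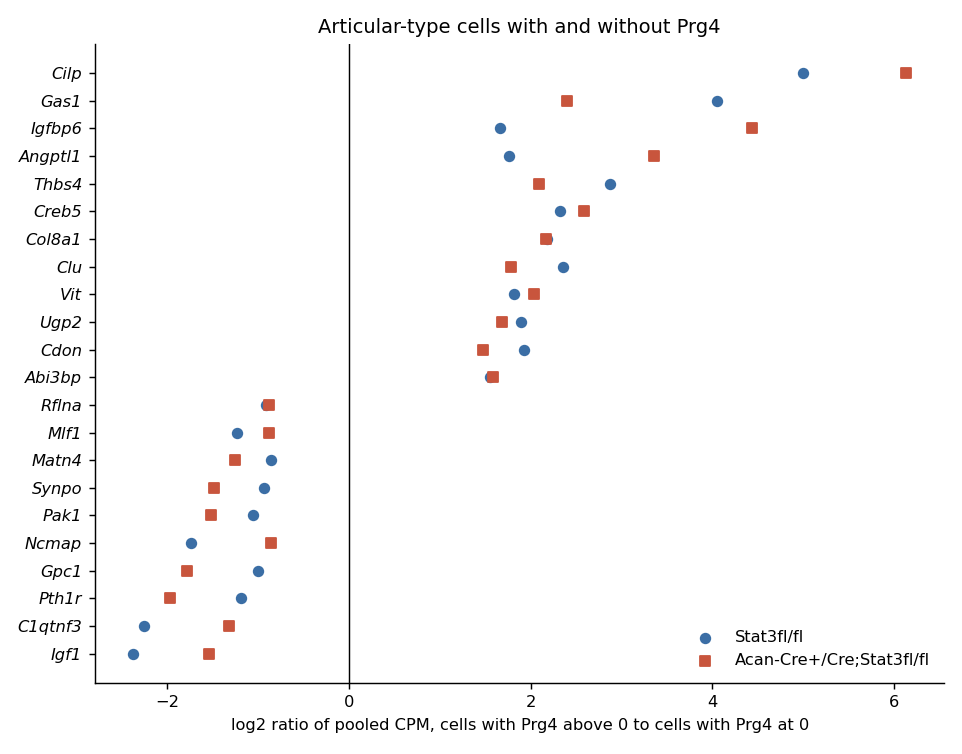
Log2 ratio of pooled CPM (x axis) in articular-type cells with Prg4 above 0 to those with Prg4 at 0, for the 12 genes highest and 10 of the 12 lowest in both libraries, with circles for the control and squares for the mutant library. Bglap and Hist1h2ap were left out after their values were seen, as 3 cells supplied 99.7% and 93.6% of their UMIs in control cells without Prg4. Cilp has the highest ratios (4.99 and 6.13) and Igf1 the lowest in the control (-2.37, and -1.53 in the mutant). In cells with Prg4, 3 cells supplied 50.6% (control) and 50.3% (mutant) of the Cilp UMIs.

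The genotypes were compared within articular-type cells, to ask what accompanied Stat3 deletion in these cells. Stat3 (chromosome 11, 100885098 to 100939540, minus strand) was at 199 CPM in control and 123 CPM in mutant cells, which is a log2 ratio of -0.69. In growth-type cells it was at 115 and 83.6 CPM, a ratio of -0.46. At equal depth Stat3 was detected in 25.1% of control (19.0% to 32.2%) and 21.2% of mutant (15.2% to 28.4%) articular-type cells. These intervals overlap and cover counting error only. Reads came from the 3′ end of transcripts and cannot tell intact Stat3 transcripts from those lacking the floxed exons.

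In articular-type cells 5444 genes passed the filter, of which 176 (3.23%) were at least 2-fold higher and 359 (6.59%) at least 2-fold lower in the mutant library. In growth-type cells 225 of 5268 (4.27%) were higher and 323 (6.13%) lower. The balance depended on scaling, because the median log2 ratio over all genes was -0.15 in articular-type and -0.19 in growth-type cells. With ratios centred on the median of genes with at least 10 CPM, 260 genes were higher and 236 lower, so 52.4% rather than 32.9% of the genes past 2-fold were higher. Stat3 was then at -0.55. The ratios that follow are not centred and stand against that median, and where a pair of levels is given the control comes first.

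Some receptors upstream of Stat3 were also lower. Of 13 gp130 receptors, kinases and STATs, 9 passed the filter, 2 were at least 2-fold lower (against 6.59% of all genes tested) and none was higher, with a median of -0.54. Osmr (chromosome 15, 6813577 to 6874969, minus strand), the oncostatin M receptor, was at 94.1 CPM in control and 21.8 CPM in mutant cells, which is a log2 ratio of -2.06. It was almost as far apart in growth-type cells, at 89.6 and 20.4 CPM. At equal depth Osmr was detected in 14% (9.25% to 19.9%) and 3.12% (1.02% to 7.14%) of articular-type cells. Il6st (chromosome 13, 112464070 to 112510086, plus strand), encoding gp130, was at 153 and 72 CPM, a ratio of -1.08, and at -0.94 after centring, which is inside 2-fold. Lifr (60 and 63.5 CPM), Il6ra (26.6 and 31.8 CPM) and Il11ra1 (44.9 and 64.3 CPM), the ligand-binding receptors for LIF, IL-6 and IL-11, were not lower in the mutant library.

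Ligands and targets past 2-fold were higher in the mutant library. Of 6 ligands of the family only Il11 and Clcf1 passed the filter, and both were higher. Il11 (chromosome 7, 4772373 to 4782859, minus strand) was at 23.3 and 121 CPM, a log2 ratio of 2.33, and was detected at equal depth in 2.79% (0.913% to 6.4%) and 12.5% (7.81% to 18.6%) of articular-type cells. In growth-type cells Il11 was at 52.2 and 452 CPM. Clcf1, another gp130 cytokine, was at 10.2 and 30.4 CPM. Of 21 STAT3 feedback and target genes 14 passed, 2 were at least 2-fold higher (3.23% of all genes) and none was lower (6.59%). Of the 14, 9 had a ratio above 0, with a median of 0.29. Socs3, the feedback inhibitor of gp130, was at 87.1 and 82.7 CPM, a ratio of -0.07. The higher ones were Cebpb, a transcription factor of the acute-phase response, at 50.6 and 182 CPM, and Timp1, an inhibitor of metalloproteinases, at 56.6 and 153 CPM.

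The IGF axis held the 2 lowest ratios among the 2820 genes that could be named. Igf1 (chromosome 10, 87858265 to 87937042, plus strand) was at 728 CPM in control and 75.9 CPM in mutant articular-type cells, a log2 ratio of -3.24, and at 382 and 56.3 CPM in growth-type cells. At equal depth Igf1 was detected in 33.5% (26.7% to 40.9%) of control and 11.2% (6.81% to 17.2%) of mutant articular-type cells. These ranges do not overlap, but Igf1 was named for its ratio in these same cells, so this is no test. The unmarked control cells with A above G had 489.6 CPM of Igf1, so the mutant value was lower than in either set of control cells. Igf1 was lower in the mutant library both with and without Prg4, as the values above show.

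Igfbp5 (chromosome 1, 72857932 to 72874884, minus strand) was at 1168 and 234 CPM in articular-type cells, a log2 ratio of -2.32, and was detected at equal depth in 35.2% (28.2% to 42.7%) and 14.4% (9.34% to 20.8%). In growth-type cells it was not lower but at 124 and 203 CPM, and without the cells that carried osteoblast markers the ratio there was -0.27. Crispld2 (309 and 79.5 CPM) and Mylk (86.2 and 24.8 CPM), the smooth muscle myosin kinase, were likewise past 2-fold in articular-type cells but at -0.18 and -0.31 in growth-type cells. Markers of fibroblasts and mural cells moved with these genes. The fibroblast list summed to 2463 and 1072 CPM, and the mural list was at 255 and 51.9 CPM. Of the 3 fibroblast members that passed the filter, Col3a1 and Col14a1 were at least 2-fold lower (6.59% of all genes). The mural markers Rgs5 and Myh11 were detected in 4.08% and 2.04% of control articular-type cells, and Pi16 and Dpp4 were at or below 4.77 CPM. The part of such cells in the Igfbp5, Crispld2 and Mylk differences was not tested. The other IGF genes differed less, with Igf2 at 530.1 and 306 CPM, Igf1r at 96.6 and 103 CPM and Igfbp7 at 1376 and 1565 CPM.

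Of 12 articular genes outside the rule 10 passed the filter and none was at least 2-fold higher or lower, where 3.23% and 6.59% of all genes were. Of the 10, 7 had a ratio below 0, and the median was -0.36 against -0.15 over all genes. Prg4 (-0.30), Clu (0.19), Cilp2 (0.04), Abi3bp (-0.74), Thbs4 (-0.84) and Creb5 (-0.63) are examples. At equal depth the interval of the share with Prg4 was 33.0% to 47.8% in control and 42.6% to 58.6% in mutant cells, which overlap. Among the genes that define the class, Cytl1 was at 271 and 1015 CPM and Rbp4, the retinol carrier, at 237 and 873 CPM. In growth-type cells Cytl1 was at 2.58 and 113 CPM. Rbp4 did not pass the filter there, at 7.97 and 20.2 CPM, and its ratio of 1.24 was 0.75 with a pseudocount of 10 CPM and 0.85 with cells weighted equally. Because Cytl1 and Rbp4 enter score A, their differences are a description only. Frzb, a secreted Wnt antagonist, was at 78 and 188 CPM, whereas Crispld1 (1428 and 1513 CPM) and Wif1 (589 and 639 CPM) differed little.

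Matrix genes were mostly lower in the mutant library. All 24 cartilage matrix genes passed the filter and 20 had a ratio below 0. Of the 24 genes, 2 were at least 2-fold lower (6.59% of all genes) and none was higher (3.23%). Their median was -0.49, against -0.15 over all genes and -0.33 for the same list in growth-type cells. Acan was at 2661 and 1093 CPM in articular-type cells, a ratio of -1.28, and at -1.36 in growth-type cells. The Cre of the mutant is expressed from Acan, so the effect of the modified locus and that of Stat3 deletion cannot be told apart for this gene. Matn2, a matrilin, was at 79.5 and 35.2 CPM, the other matrix gene past 2-fold. The small proteoglycans Bgn (3769.8 and 2026 CPM) and Fmod (3279 and 1760.3 CPM) had ratios of -0.90, and Col11a1 (-0.43), Col9a1 (-0.50) and Hapln1 (-0.17) were nearer to 0. Chad (0.10) and Dcn (0.33) were on the other side.

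Genes that serve matrix production were counted against the same shares over all genes, 3.23% higher and 6.59% lower. Slc26a2, which imports sulfate for proteoglycan sulfation, was at 189 and 63.5 CPM, a log2 ratio of -1.56 in articular-type and in growth-type cells, and was the only one of 11 glycosaminoglycan synthesis genes past 2-fold. Of 18 genes for collagen folding and secretion, Plod2, a collagen lysyl hydroxylase, was lower (1709 and 816 CPM) and Herpud1 higher (1.06). Timp1 was the only one of 10 proteases and inhibitors past 2-fold. None of 15 glycolysis and hypoxia genes was past 2-fold, with a median of -0.14.

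In the hedgehog and PTHrP list 3 of 8 genes passing the filter were at least 2-fold lower (6.59% of all genes) and none was higher (3.23%). These were Gli1, a transcription factor induced by hedgehog signalling (37.4 and 14.6 CPM), Gli2 (36.8 and 15.9 CPM) and Hhip (192 and 83.7 CPM). Hhip is a hedgehog-binding inhibitor that is itself a target. With a pseudocount of 10 CPM, Gli1 (-0.95) and Gli2 were inside 2-fold and Hhip was at -1.11. Ptch1, the receptor and another target, was at 133 and 91.4 CPM, a ratio of -0.53. In growth-type cells Hhip had a ratio of -1.69. Gli1 did not pass the filter there, and its ratio of -1.34 was -0.85 with a pseudocount of 10 CPM. Axin2, a target of Wnt signalling, was at 31.5 and 15.3 CPM, and the secreted Dkk3 was at 51.1 and 19 CPM. Of 4 Wnt ligands and targets passing the filter 1 was at least 2-fold lower and none was higher, with a median of -0.36. Of 3 secreted Wnt antagonists passing, 1 was lower and none was higher, but 2 had a ratio above 0 and the median was 0.65. The whole antagonist list summed to 155 and 196 CPM.

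The remaining growth factor and regulator lists were read against the same 3.23% and 6.59%. Of 19 BMP and TGF-beta genes 1 was higher (Bmp2, 53.7 and 113 CPM) and 1 lower (Tgfbr3, 147 and 70.8 CPM), with a median of -0.03. Of 8 FGF genes Fgf18, a cartilage growth factor, was higher (21.2 and 45.2 CPM), with a median of 0.36. Of 18 chondrocyte transcription factors Runx3 was lower (72.4 and 27.1 CPM) and none was higher, with a median of -0.45.

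**Figure D4:**
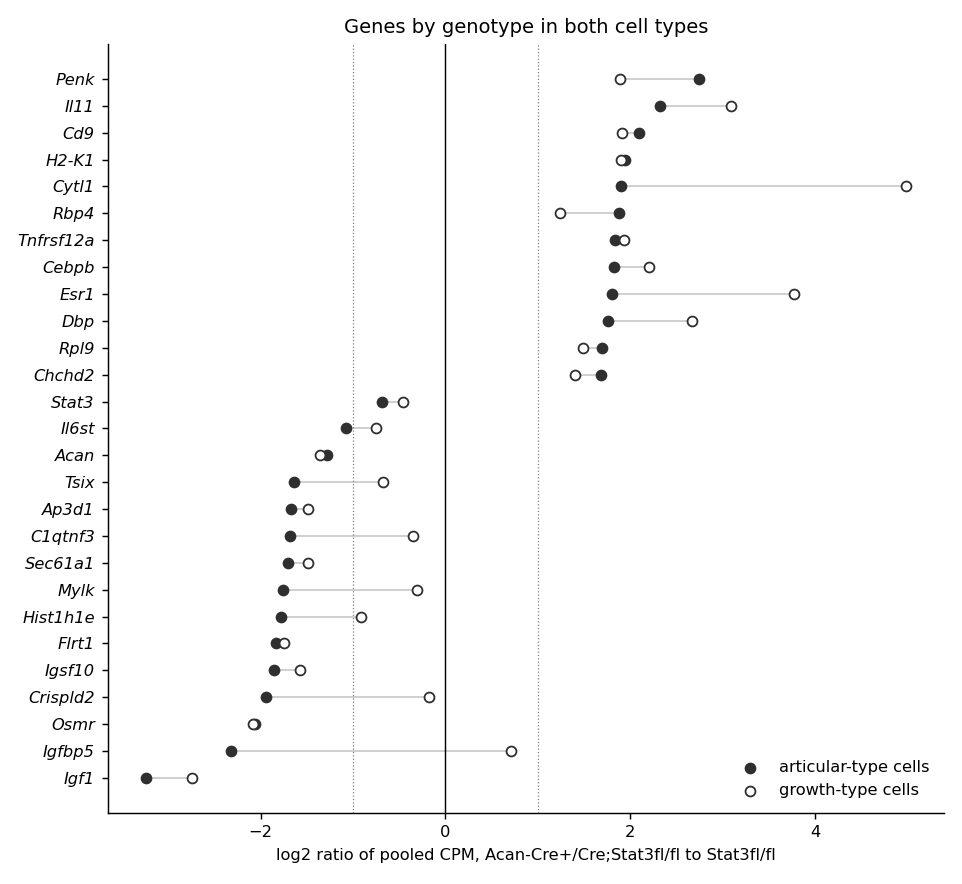
Log2 ratio of pooled CPM, mutant to control library (x axis), in articular-type cells (filled) and growth-type cells (open) for the 12 highest and 12 lowest genes in articular-type cells, with Stat3, Il6st and Acan added. Dotted lines mark 2-fold. Igf1 is lowest in articular-type cells (-3.24, and -2.74 in growth-type cells), Penk is highest (2.75 and 1.90), and Igfbp5 lies on opposite sides of 0 (-2.32 and 0.71).

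Maturation and proliferation genes were counted against the 3.23% of all genes that were higher and 6.59% that were lower. The hypertrophic and proliferative sets were those of the study, which used them on these same libraries, so they are not independent evidence. Of 15 genes of the hypertrophic set 9 passed the filter and 1, Cd200, was at least 2-fold higher (48.5 and 140.4 CPM), while 7 of the 9 had a ratio above 0. The median was 0.56 in articular-type and 0.55 in growth-type cells. The summed level of the set differed in direction, at 7666 and 6638 CPM in articular-type and 1347 and 4715 CPM in growth-type cells. Col1a1, a member of the set, was at 7052 and 5656 CPM in articular-type cells. Col10a1, the collagen that defines hypertrophic chondrocytes, was at 2.26 and 0.903 CPM in articular-type cells, against 133 and 932 CPM in growth-type cells. Of 13 growth plate genes outside the rule that passed the filter, Cd200 and Spp1 were higher and none was lower, with a median of 0.48. Spp1, the bone matrix protein osteopontin, was at 445 and 1453 CPM, but the 3 cells with most of its UMIs supplied 48.6% and 67.7% of them, and without the cells that carried osteoblast markers its ratio of 1.71 turned to -0.84. None of the 10 genes of the proliferative set that passed was past 2-fold, with a median of -0.32. The summed level of S-phase and G2/M genes had a log2 ratio of -0.06 in articular-type cells, from 647 and 655 CPM for S phase and 1184 and 1096 CPM for G2/M.

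The highest ratios belonged to secreted and membrane proteins as well as to a few regulators. Penk (chromosome 4, 4133531 to 4138819, minus strand), the precursor of enkephalin peptides, was at 109 and 736 CPM in articular-type cells, a log2 ratio of 2.75. At equal depth Penk was detected in 16.2% (11.1% to 22.4%) and 27.5% (20.7% to 35.1%), ranges that overlap slightly. Cd9, a tetraspanin of the cell membrane, was at 271 and 1159 CPM and was detected at equal depth in 41.9% (34.6% to 49.5%) and 81.2% (74.3% to 87.0%). Tnfrsf12a, the receptor for TWEAK, was at 147 and 528 CPM, and H2-K1, a class I histocompatibility chain, at 34.2 and 134 CPM.

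Esr1, the estrogen receptor alpha, was at 41.8 and 149 CPM in articular-type cells and at 13.2 and 193 CPM in growth-type cells. At equal depth it was detected in 6.15% (3.11% to 10.7%) and 28.1% (21.3% to 35.8%) of articular-type cells. The circadian output factor Dbp was at 40.5 and 139.8 CPM. The ribosomal protein gene Rpl9 (644 and 2090.0 CPM) and Chchd2, a mitochondrial protein (190.2 and 612 CPM), completed the 12 highest. Ribosomal counts as a whole were also higher, with a median of 12.8% of a control and 17.0% of a mutant articular-type cell.

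The remaining low genes were Igsf10 (263 and 71.6 CPM), Flrt1 (90.2 and 24.6 CPM), the linker histone Hist1h1e (111 and 31.6 CPM), C1qtnf3 (444 and 138 CPM), Ap3d1 (82.1 and 25 CPM), Tsix (161 and 51 CPM) and Sec61a1 (467 and 143 CPM). Tsix lies antisense to another transcript and the strand setting of the counting is not given in the sources used here. Sec61a1, a subunit of the channel that carries new proteins into the endoplasmic reticulum, depended on how cells were weighted, since its ratio of -1.70 became -0.23 when each cell counted equally.

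Signs of handling were read from 2 lists. Counts in this paragraph stand against 3.23% of all genes higher and 6.59% lower. Of 19 dissociation stress genes 1 was past 2-fold, Ier3 (217 and 473 CPM), with a median of 0.01, although Jun was at 2653 and 1327 CPM, a ratio of -0.999 that lay just inside 2-fold. Of 11 antioxidant and metallothionein genes, Hmox1 (72.6 and 217 CPM), Txnip (53.2 and 129 CPM) and Sod2 (22.7 and 55.6 CPM) were higher and none was lower, with a median of 0.05. Of 4 osteoblast markers passing the filter 2 were higher, Bglap and Bglap2. Bglap was at 1392 and 4689.6 CPM, but 3 cells supplied 99.1% of its UMIs in control and 77.8% in mutant cells.

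**Figure D5:**
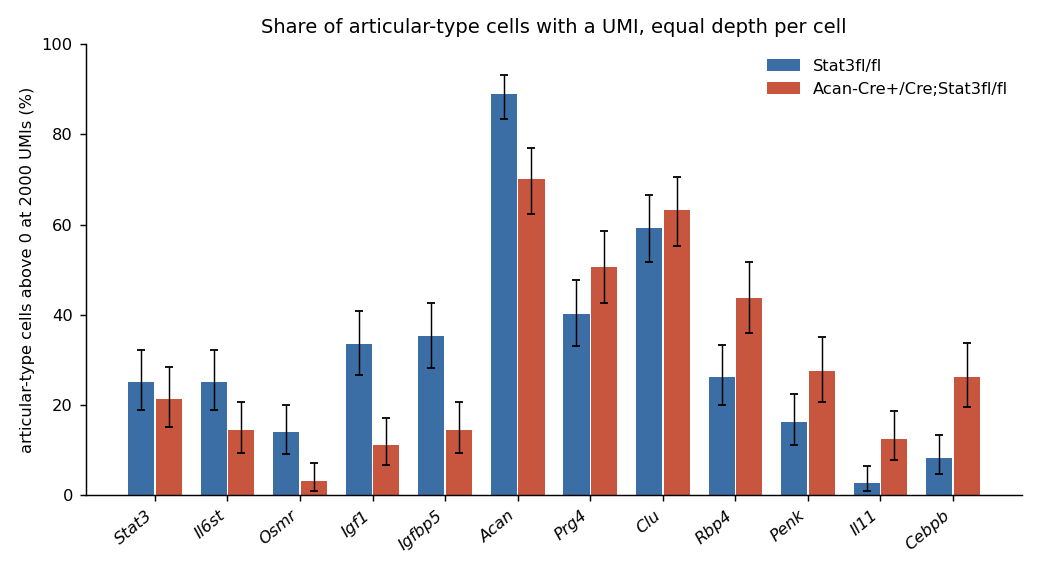
Share of articular-type cells (y axis, percent) with at least 1 UMI of each gene after every cell was thinned to 2000 UMIs, for the control (179 cells) and mutant (160 cells) library. Bars are shares and error bars exact 95% binomial intervals, which cover counting error only. Osmr, Igf1, Igfbp5 and Acan are lower and Il11 and Cebpb higher in the mutant library, with intervals that do not overlap. Those of Stat3, Il6st, Prg4, Clu and Penk overlap. Rbp4 is also higher without overlap, but it enters score A, so its difference is a description only. Osmr, Igf1, Igfbp5, Il11, Cebpb, Penk and Rbp4 were named for their ratios in these same cells. Overlap of intervals, or its absence, is therefore no test between the genotypes.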

How the data were processed

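Knee cells were profiled with the Chromium 3′ v3.1 kit. In Partek Flow, the authors aligned reads to mm10 with STAR 2.7.3a, collapsed UMIs, counted on a Gencode annotation and removed ambient RNA with SoupX. Gene values were deposited as log2(CPM + 1) for each cell, the deposited total is an estimated count after ambient removal, mitochondrial and ribosomal shares were deposited as a percent of it, and the deposited number of expressed genes was read as a score. No column of other samples was present (0 columns left out). A text column holds the authors' mark.

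Estimated UMIs were recovered as (2 to the power of the value, minus 1) times the cell's total over 1000000. Of values above 0 in articular-type cells, 71.2% (control) and 96.9% (mutant) were whole to within 0.1, so no count model and no Poisson interval was used. They were rounded only for thinning and for doublets (Scrublet in scanpy 1.11.5, expected rate 0.05, doublets kept), which marked 74 control cells (1.51%) and 2 mutant cells (0.149%), so it may not have worked in the mutant library. Among articular-type cells 1 control and 0 mutant cells were called. The libraries shared 2 barcodes, none among marked cells. UMIs were summed over cells, giving 964315 in control and 1503680 in mutant articular-type cells, scaled to CPM, and log2 ratios taken with a pseudocount of 1 CPM, which understates differences of low genes (numpy 2.4.6, pandas 2.3.3, scipy 1.17.1, matplotlib 3.10.9). Genes had to be above 0 in 10% of cells of either group with a mean of at least 20 CPM, and "called" means past 2-fold. The 14 genes of the rule, Sox9 and Col2a1 were left out of counts between classes.

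Named genes were the rule's genes, Stat3, members of the gene lists, the 15 highest and 10 lowest between classes by the smaller of the library ratios, and the 12 highest and 12 lowest between genotypes with under 50% of UMIs from 3 cells, all with a mean of at least 50 CPM. The members, lists and rules were chosen with earlier results of these data known. Alternatives were the 5% mitochondrial limit, a margin of 0.5 between A and G, counting genes above 0, unmarked cells, doublets, depth, osteoblast markers, cell weights, pseudocounts of 0.1 and 10 CPM, centring, the filter and the list mean. The ratio functions were checked on simulated cells drawn from a common profile per genotype. The simulation had no variation between cells, so it does not cover genes carried by few cells. Coordinates are on GRCm38 (mm10), from the Gencode M21 annotation, and the authors counted on another release.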

Additional observations from a re-analysis of the deposited data

Results flagged for a closer look

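Among listed and named genes with a mean of at least 50 CPM that passed 2-fold in articular-type cells, 2 had a ratio of at least 0.5 in size on the other side of 0 in growth-type cells, and the difference was not tested. Genes inside 2-fold in articular-type cells could also differ in sign, such as Col1a1 with -0.32 and 2.27. Igfbp5 had a log2 ratio, mutant to control, of -2.32 in articular-type and 0.71 in growth-type cells. Without cells carrying at least 3 osteoblast markers the values were -2.08 and -0.27, so the opposite sign rests on those cells. Col14a1, a fibril-associated collagen and 1 of the fibroblast markers, had -1.17 and 0.96. It did not pass the filter in growth-type cells, so its sign there rests on low values. The 3 cells with most of its UMIs supplied 34.2% of them in control and 43.8% in mutant articular-type cells.

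In data outside the main comparison, 311 unmarked control cells with Sox9 and Col2a1 had A above G. Their genes resembled those of the marked articular-type control cells in level, with Prg4 at 6856 CPM, Clu at 2082 CPM, Stat3 at 175 CPM and Acan at 2378 CPM. Genes that differed between genotypes were on the control side in them, with Igf1 at 489.6 CPM, Igfbp5 at 905 CPM, Osmr at 76.5 CPM, Cd9 at 325 CPM, Penk at 104 CPM, Cebpb at 37.4 CPM and Il11 at 10.2 CPM. These cells come from the same library, so they are no second replicate. They also carried Hbb-bs, a globin gene, at 365 CPM and the proliferation marker Mki67 at 238 CPM, in 19.0% of cells, against 24.2 CPM for Mki67 in marked articular-type control cells. The median depth was 3746 UMIs. The part of erythroid RNA in the Mki67 level was not tested.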

How the results depend on the processing

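No paired analysis was possible because each genotype has 1 library, and no replicate could be left out for the same reason. Of 116 values of the main comparisons over 15 alternatives, 101 moved little (shares within their interval, counts within 1.5 times), 15 moved further and 0 were counted as reversed. The cell cycle sum still lay below 0 in some alternatives and above 0 in others. Centring also left more genes higher than lower between genotypes, unlike the main setting. The genotype difference in share was 17.7 points for cells within 5% mitochondrial counts and 1.29 points with unmarked cells, which gave a control share of 50.05%. Thinning gave a control share of 34.7%, and requiring at least 2 A genes, chosen after seeing the data, gave 30.9% and 44.9%. Leaving out tied cells was also chosen after seeing the data. Between classes, thinning gave 67 genes higher and 47 lower, and no filter 586 and 395. Between genotypes, a pseudocount of 10 CPM gave 106 higher and 163 lower, centring 260 and 236, and no filter 1338 and 2588. The cause of the other moves was not tested. Stat3 ranged from -0.74 to -0.55, the matrix median from -0.54 to -0.35, and the cell cycle sum from -0.54 (with unmarked cells) to 0.07 (centred). For the 24 genes named by genotype ratio, 282 of 288 values stayed within 1.5 times and 1, Sec61a1 with equal weights, was under 2-fold. For the 25 named between classes, 299 of 325 stayed within 1.5 times and none was under 2-fold. Depth limits genes near 1 UMI per cell, and 1 pool per genotype limits every difference between the genotypes.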

Other observations

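Among 19 genes followed through every alternative, the widest spread of the log2 ratio, mutant to control, in articular-type cells was in bone matrix genes. Bglap, encoding osteocalcin, ranged from 1.15 to 7.17, Spp1 from -0.84 to 1.95 and Col1a1 from -2.13 to -0.06. Osmr ranged from -3.20 to -1.71 and Igfbp5 from -2.85 to -1.72. Igf1 stayed between -3.50 and -2.96, Acan between -1.44 and -1.15, Il6st between -1.15 and -0.94, Penk between 2.26 and 2.88, Il11 between 1.96 and 2.84, Cebpb between 1.61 and 2.09 and Esr1 between 1.61 and 2.23.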
